A study of Homo sapiens with 9 samples.

Results

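MT-RNR1 and MT-RNR2 are the genes of the rRNAs of the small and the large subunit of the mitochondrial ribosome. All their windows in a table of eCLIP cross-link sites were taken, 123 windows of 15767969, and both genes are 2 of 35308 gene identifiers. The table comes from Huh7, a human hepatoma cell line, and has 9 libraries: 3 of MDH2 IP, in which an antibody against the mitochondrial malate dehydrogenase MDH2 was used, 3 of IgG IP with an isotype-matched control antibody, and 3 of SMI, the size-matched input set aside before the IP. All cells were cross-linked with UV light and all lysates were treated with RNase I, with no other treatment or genotype in any group. IP libraries had 14 PCR cycles and SMI libraries 9, and PCR duplicates had been removed by molecular identifiers.

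Mitochondrial rRNAs are transcribed from mitochondrial DNA as part of a long precursor in which tRNAs lie between the longer RNAs. The precursor is cut at the ends of these tRNAs, and the rRNAs are then folded, modified and built into the ribosome with proteins that are imported from the cytosol. Stretches of mitochondrial DNA have also been copied into the nuclear genome during evolution. In eCLIP, reverse transcription tends to stop at the nucleotide that was cross-linked to protein, so the nucleotide next to the start of a read is counted as the cross-link site. SMI holds RNA cross-linked to any protein in the same range of the gel, and is the background against which an IP is read.

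The order of genes on the plus strand of the mitochondrial chromosome is MT-TF, MT-RNR1, MT-TV, MT-RNR2 and MT-TL1. In GRCh38 with GENCODE v44, MT-RNR1 (ENSG00000211459.2) lies at chrM:648-1601 and has 954 nt in 1 exon. MT-RNR2 (ENSG00000210082.2) lies at chrM:1671-3229 and has 1559 nt in 1 exon. The 50-nt windows, which start every 20 nt, were numbered from the 5′ end of each gene, so that a site enters up to 3 windows. MT-RNR1 had 46 listed windows of 47 and MT-RNR2 had 77 of 77. The highest window number was the one that the length of the gene gives for both genes, so positions within the gene are given here from the window number.

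The overlap of neighbouring windows sets a lower and an upper limit on the number of sites in each 10-nt stretch. The following stretches carry the results below, with the 10 nt in capitals and 10 nt on each side in lower case, read from hg38, plus strand, as DNA. The first 4 are stretches of the main peaks, and the last 2 lie in windows whose share of the gene differed between MDH2 IP and SMI.
MT-RNR1 positions 271 to 280, shown chrM:908-937: cgattaacccAAGTCAATAGaagccggcgt
MT-RNR2 positions 151 to 160, shown chrM:1811-1840: accaagcataATATAGCAAGgactaacccc
MT-RNR2 positions 571 to 580, shown chrM:2231-2260: aatcccaaacATATAACTGAactcctcaca
MT-RNR2 positions 1511 to 1520, shown chrM:3171-3200: ccgtaaatgaTATCATCTCAacttagtatt
MT-RNR2 positions 851 to 860, shown chrM:2511-2540: cacctctagcATCACCAGTAttagaggcac
MT-RNR1 positions 781 to 790, shown chrM:1418-1447: ggtggatttaGCAGTAAACTaagagtagag

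Summed over all windows, MDH2 IP libraries held 5899767 to 9482209 counts, SMI libraries 8311027 to 9788461 and IgG IP libraries 1631220 to 2942624, so that window values of IgG IP rest on the fewest counts. The hepatocyte RNAs ALB and AFP were present in all libraries, with at least 297 and 574 counts, while the leukocyte marker PTPRC had at most 8 counts and the fibroblast marker COL1A1 at most 7. Counts of replicates differed by more than sampling noise for every pair. The labels do not say whether replicates came from separate cultures, so the p-values measure the spread between these libraries, which may be technical.

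Both rRNAs were covered in all 9 libraries, and the large-subunit rRNA held more counts than the small-subunit rRNA in each of them. Window counts of MT-RNR2 were 227867, 358526 and 353661 in SMI, 166637, 147747 and 130761 in MDH2 IP, and 45463, 24551 and 20312 in IgG IP. As a share of all counts, this was 1.76%, 2.20% and 2.22% in MDH2 IP, 2.74%, 3.83% and 3.61% in SMI, and 1.54%, 1.42% and 1.25% in IgG IP. The 3 groups did not overlap, with SMI the highest and IgG IP the lowest. The mean share was 3.40% ± 0.577 (SD, n = 3) in SMI, 2.06% ± 0.260 (SD, n = 3) in MDH2 IP and 1.40% ± 0.151 (SD, n = 3) in IgG IP. Each of these 3 differences had an exact two-sided permutation p of 0.1, the smallest that 3 against 3 libraries allow, and 0.2 after adjustment over 6 comparisons.

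MT-RNR1 had a share of 0.672%, 0.940% and 0.803% in MDH2 IP, 0.675%, 0.958% and 0.812% in SMI, and 0.680%, 0.448% and 0.389% in IgG IP. MDH2 IP and SMI overlapped almost fully, with means of 0.805% ± 0.134 (SD, n = 3) and 0.815% ± 0.142 (SD, n = 3). The difference of -0.0101 percentage points had an exact permutation p of 0.7. This test takes no account of the replicate number, and MDH2 IP was slightly below SMI at each number. IgG IP replicate 1 lay within the range of both other groups, and IgG IP replicates 2 and 3 lay below it. Per length, the level of MT-RNR2 was 13193 CPM per kb (window counts scaled to the total of the library, per kb of gene) in the MDH2 IP, 21782 in the SMI and 9008 in the IgG IP libraries, and that of MT-RNR1 was 8438, 8543 and 5298.

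The gene totals were then compared across all genes with edgeR's quasi-likelihood test. MT-RNR2 was lower in MDH2 IP than in SMI, with a log2FC of -0.82 (SE 0.187) and an adjusted p of 0.0105, where 17.9% of 17056 genes tested were lower and 16.4% higher. Without MDH2 IP replicate 1 the log2FC was -0.68 and the adjusted p 0.063. MT-RNR1 did not pass the test in the same comparison, at -0.11 (SE 0.186, edgeR adjusted p 0.672). With the replicate number as a block it passed, also at -0.11 (SE 0.0457, edgeR adjusted p 0.0384). Against IgG IP, the values of MDH2 IP were 0.40 (SE 0.179, edgeR adjusted p 0.167) for MT-RNR2 and 0.52 (SE 0.231, edgeR adjusted p 0.162) for MT-RNR1, and neither passed, where 4.64% of 15491 genes were higher and 7.77% lower. IgG IP was lower than SMI for MT-RNR2 at -1.13 (SE 0.187, edgeR adjusted p 0.00198), where 11.4% of 15708 genes were lower and 16.4% higher. MT-RNR1 had -0.55 (SE 0.224, edgeR adjusted p 0.0957) there, and without IgG IP replicate 1 it was -0.79 with an adjusted p of 0.0303. Both comparisons with SMI share the SMI libraries. Fewer sites on an RNA and less of that RNA in the library cannot be told apart in these counts.

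**Figure D1:**
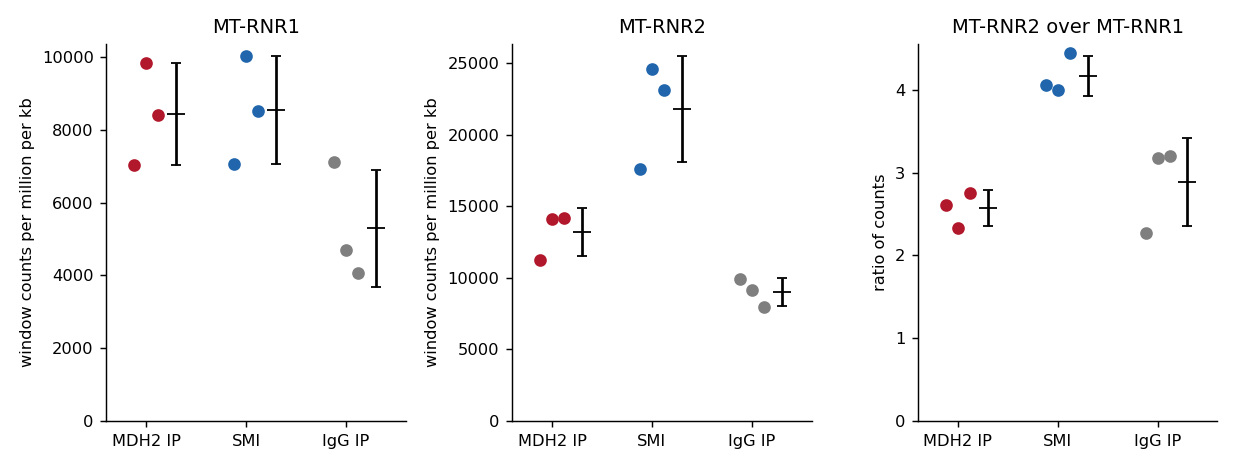
Level of MT-RNR1 and MT-RNR2 in window CPM per kb of gene, and the ratio of their counts, with 1 point per library and the mean ± SD (n = 3) beside each group. All 3 SMI libraries lie above the other 6 for MT-RNR2 and for the ratio, while MDH2 IP and SMI overlap for MT-RNR1.

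The ratio of both rRNAs within a library needs no scaling between libraries. There were 2.62, 2.34 and 2.76 counts on MT-RNR2 for 1 count on MT-RNR1 in MDH2 IP, 4.06, 4.00 and 4.45 in SMI, and 2.27, 3.18 and 3.20 in IgG IP. All SMI libraries lay above all IP libraries, and all MDH2 IP libraries lay within the range of IgG IP. The mean log2 ratio was 2.06 ± 0.0828 (SD, n = 3) in SMI, 1.36 ± 0.123 (SD, n = 3) in MDH2 IP and 1.51 ± 0.283 (SD, n = 3) in IgG IP. MDH2 IP was lower than SMI by 0.70 on the log2 scale and IgG IP was lower than SMI by 0.55, each with an exact permutation p of 0.1, the smallest possible, and 0.15 after adjustment over 3 comparisons. MDH2 IP and IgG IP differed by -0.15, with an exact permutation p of 0.4. Per nt of gene, the ratio was 2.55 ± 0.149 in SMI, 1.57 ± 0.132 in MDH2 IP and 1.77 ± 0.324 in IgG IP (SD, n = 3).

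Along each gene the sites were concentrated in the same few places in all groups. In MT-RNR1, 8 to 10 of 47 windows held 50% of the counts of the gene, and in MT-RNR2 11 to 15 of 77 windows did. The shares of the windows correlated between any MDH2 IP and any SMI library with Pearson's r of 0.965 to 0.985 over the 47 windows of MT-RNR1, and of 0.934 to 0.989 over the 77 windows of MT-RNR2. Between MDH2 IP and IgG IP, r was 0.979 to 0.992 and 0.9695 to 0.994. These correlations describe the profiles only, since neighbouring windows share sites. Shares of MDH2 IP and SMI did not overlap in 25 windows of MT-RNR1 and 40 of MT-RNR2. For IgG IP and SMI this held in 18 and 45 windows, and for MDH2 IP and IgG IP in 8 and 26. A separation of groups at a single window was therefore common in these genes.

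The highest window of MT-RNR1 was window 14 (positions 261 to 310) in all 9 libraries. It held 10.7%, 11.5% and 10.98% of the counts of the gene in MDH2 IP, 11.6%, 11.8% and 12.3% in SMI, and 12.9%, 12.3% and 10.9% in IgG IP. All MDH2 IP libraries were below all SMI libraries, by less than 2 percentage points. In MT-RNR1 positions 271 to 280, shown above, there were at least 1570 sites in MDH2 IP replicate 1 and at least 2509 in SMI replicate 2. A lower maximum was window 4 (positions 61 to 110), with a mean of 5.56% ± 0.449 in SMI, 4.69% ± 0.437 in MDH2 IP and 4.68% ± 0.477 in IgG IP (SD, n = 3).

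In MT-RNR2 the highest window was window 8 (positions 141 to 190) in 8 of 9 libraries, and window 75 in SMI replicate 2. Window 8 held 9.22%, 8.37% and 8.18% in MDH2 IP, 7.64%, 5.88% and 6.74% in SMI, and 7.98%, 8.62% and 8.87% in IgG IP. Its share was higher in every IP library than in every SMI library, but the window did not pass the test of shares described below (diffSpliceDGE adjusted p 0.484). Near the 3′ end, window 75 (positions 1481 to 1530) held 4.73%, 5.42% and 5.01% in MDH2 IP, 4.97%, 5.89% and 4.97% in SMI, and 6.43%, 6.35% and 6.59% in IgG IP. IgG IP lay above all other libraries at this window. Most of it was narrow: positions 1511 to 1520 alone held between 4624 and 7540 sites in MDH2 IP replicate 1, and between 11800 and 20298 in SMI replicate 2, whose window 75 had 21104 counts. A further maximum was window 29 (positions 561 to 610), with 3.59% to 3.81% as group means in MDH2 IP and SMI and 3.30% in IgG IP.

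**Figure D2:**
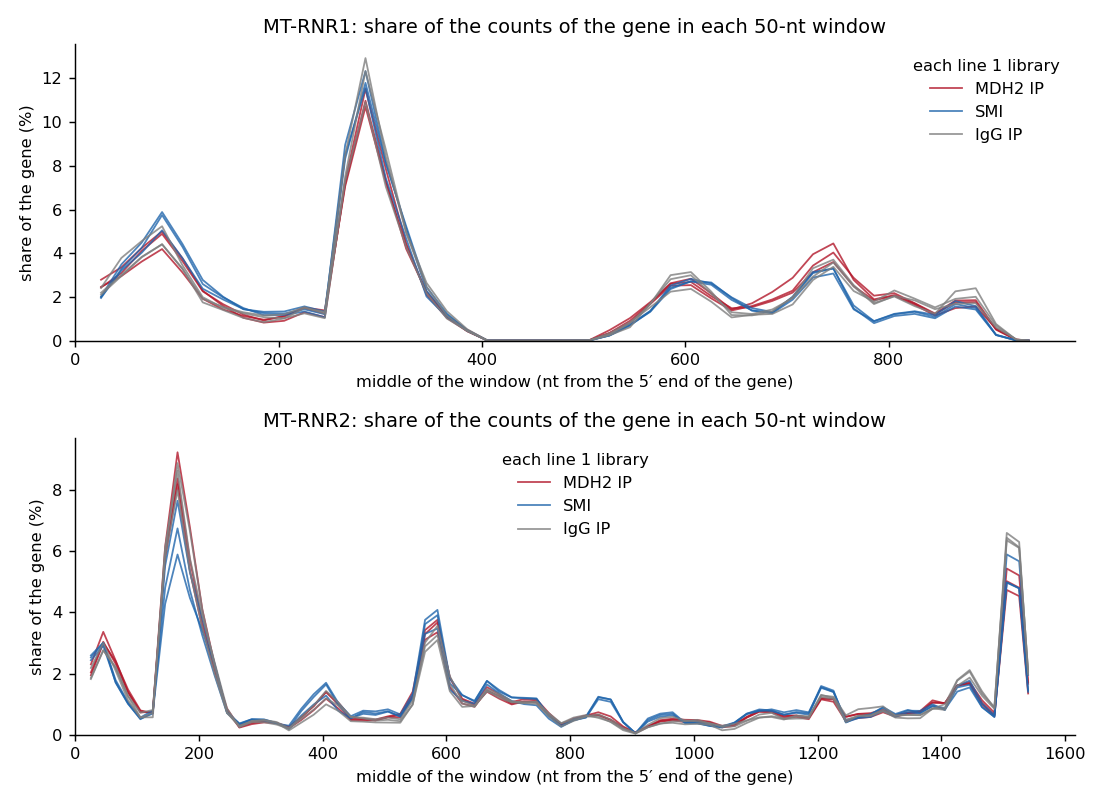
Share of the counts of the gene in each window of 50 nt, against the middle of the window in nt from the 5′ end, for MT-RNR1 (top) and MT-RNR2 (bottom), with 1 line per library coloured by group. The 9 lines run close together, with the highest window at 14 in MT-RNR1 and at 8 in MT-RNR2, and all fall to 0 or near 0 in windows 20 to 24 of MT-RNR1.

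Between windows 20 and 24 of MT-RNR1 (positions 381 to 510, chrM:1028-1157) nearly no site was counted. These 5 windows held 5 counts over all 9 libraries, while the median of the other windows of the gene was between 117.5 and 1372.5 counts per library. Window 20 was at 0 in all libraries, which allows a share of up to 0.00335% of the gene in SMI replicate 2 and 0.0473% in IgG IP replicate 3 (counting error only). The gap was present in MDH2 IP, SMI and IgG IP alike. Exact copies of these sequences occur elsewhere in hg38, alternate sequences included: per window, the median number of copies of each 20-nt word was 2 to 12 and of each 30-nt word 1 to 7. The 12 was the value of window 21, with 11 in window 20, and the 7 was the value of both. Windows 22 to 24 had medians of 2 to 3 and 1 to 3. Of the other 119 windows of both genes, 1 reached 12 copies for words of 20 nt and 0 reached 7 for words of 30 nt. The window that reached 12 was window 17 of MT-RNR2, which held 29 to 1047 counts per library. Reads with more than 10 alignments had been discarded. The part of such copies in the gap was not tested.

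The windows were then tested one by one against all windows of the table, with a call where the adjusted p did not exceed 0.05 and the log2FC was 1 or more in size. No window of either rRNA was called higher in MDH2 IP than in SMI, where 4.07% of 51105 windows were (edgeR; 4 windows of MT-RNR1 and 0 of MT-RNR2 had an unadjusted p under 0.05 in this direction). For MT-RNR2, 66 of 77 windows tested were lower in MDH2 IP, or 85.7%, where 9.92% of all windows were. All 77 had a log2FC below 0, from -2.32 at window 43 to -0.70 at window 5, with a median of -1.26. The gene total was at -0.82, on another scale, since the library size of window fits was the sum over the tested windows. For MT-RNR1, 0 of 40 windows tested were called lower, and 24 had an unadjusted p under 0.05 in this direction (edgeR). Without SMI replicate 1, 2 or 3 there were 4, 1 and 1 called, where 4.44%, 5.21% and 6.55% of all windows were lower. Windows at an unadjusted p under 0.05 were not counted over the whole table. The median log2FC of MT-RNR1 was -0.52, with 33 windows below 0 and 7 above. Without TMM scaling, that is with the sum over the tested windows as the library size, the median of all windows moved from 0.05 to 0.62. Then 15 windows of MT-RNR2 were lower, where 4.66% of all windows were. Of MT-RNR1, 3 were higher, where 23.8% of all windows were. The medians were then -0.68 and 0.05. Neighbouring windows share sites, so these counts are not of independent results.

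Between MDH2 IP and IgG IP no window of either gene was called in either direction, where 0.148% of 30424 windows were higher and 4.77% lower. The median log2FC was -0.18 over 40 windows of MT-RNR1 and -0.23 over 77 windows of MT-RNR2, opposite in sign to the gene totals, and their sign depended on the setting. They were 0.05 and 0.00 without TMM scaling, again with the sum over the tested windows as the library size. With windows of 10 counts in sum tested, they were 0.87 and 0.83. This filter also changed the windows that set the library size, and the median of all windows moved from 0.15 to 0.90. Without MDH2 IP replicate 1, 2 or 3 the median was 0.17, 0.12 and 0.13 for MT-RNR1, and 0.12, 0.11 and -0.018 for MT-RNR2. At an unadjusted p under 0.05, 1 window of MT-RNR1 was higher and 3 were lower, and 18 windows of MT-RNR2 were lower (edgeR). The share of all windows at this cut was not counted. IgG IP was lower than SMI in 22 of 77 windows of MT-RNR2, where 6.36% of 26666 windows were lower, and in 59, 45 and 44 windows without SMI replicate 1, 2 or 3, where 7.20%, 6.86% and 8.45% of 7279, 7248 and 7267 windows tested were lower. One window of 39 tested in MT-RNR1 was higher in IgG IP than in SMI, where 6.17% were higher: window 45 (positions 881 to 930), at 1.30 (SE 0.276, edgeR adjusted p 0.000265). Without SMI replicate 1, 2 or 3 there were 0 such windows, where 13.1%, 13.7% and 13.3% of all windows were higher. Without IgG IP replicate 3 there were 2, where 4.76% were higher.

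**Figure D3:**
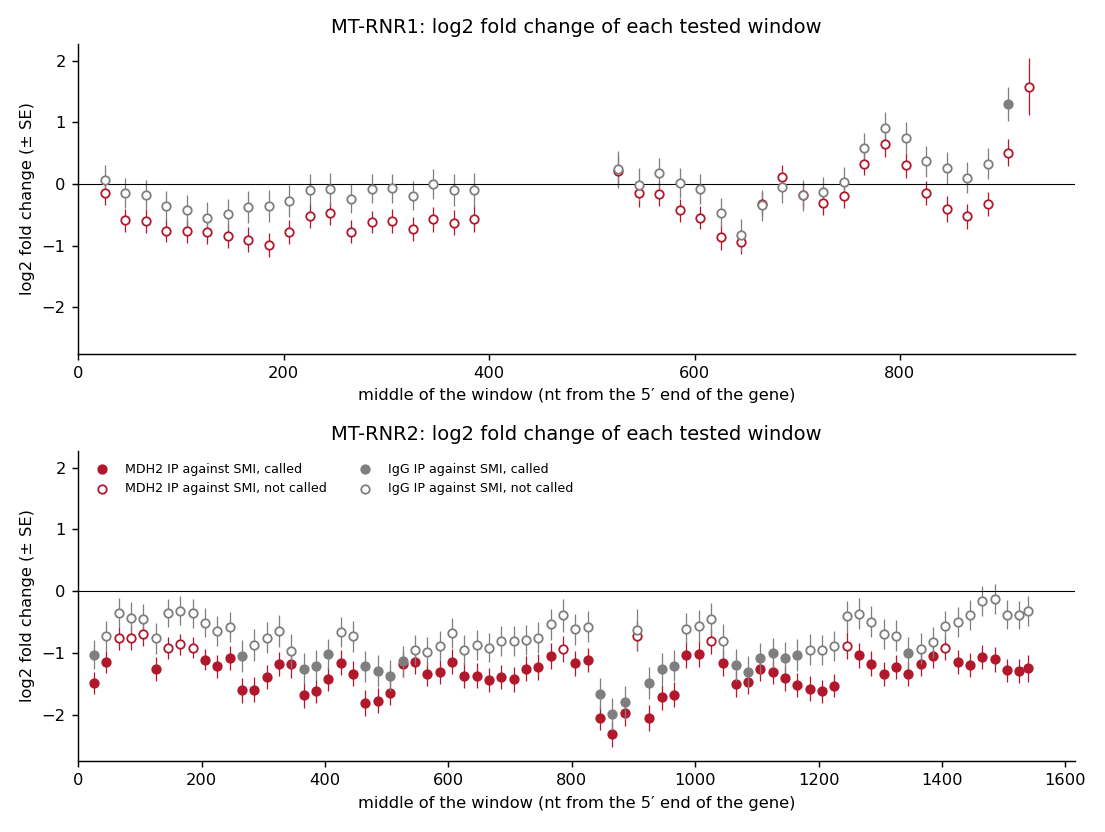
Log2 fold change (± SE) of each tested window against SMI, for MDH2 IP and IgG IP, along MT-RNR1 (top) and MT-RNR2 (bottom), with filled points for called windows (adjusted p not over 0.05, log2FC of 1 or more in size). All points of MT-RNR2 lie below 0, with the lowest of both comparisons at window 43. In MT-RNR1 the highest point is at window 46 for MDH2 IP and at window 45 for IgG IP. Windows 41 to 44 of MT-RNR1 lie lower than windows 39 and 45 in both comparisons.

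To separate the shape of a profile from the level of the gene, each window was tested against the rest of its own gene with diffSpliceDGE of edgeR. Between MDH2 IP and SMI, 5 of 40 windows of MT-RNR1 had a higher share in MDH2 IP and 0 a lower one, where 2.95% of 50664 windows were higher. They formed 2 places toward the 3′ end of the gene. Windows 38, 39 and 40 (positions 741 to 830) share positions 781 to 790, and windows 45 and 46 lie at the 3′ end. Window 46 met the count filter mainly through MDH2 IP, the group where it was higher.

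Window 39 of MT-RNR1 held 2.05%, 1.84% and 1.89% of the gene in MDH2 IP, 0.797%, 0.890% and 0.884% in SMI, and 1.79%, 1.67% and 1.72% in IgG IP. Every IP library, with either antibody, lay above every SMI library. The share was higher in MDH2 IP by 1.16 on the log2 scale (diffSpliceDGE adjusted p 0.000204), and in IgG IP by 1.01 (adjusted p 0.0164), where 1.85% of 26374 windows were higher. The call in IgG IP was lost without SMI replicate 1, 2 or 3 (adjusted p 0.191 to 0.323). Between MDH2 IP and IgG IP it differed by 0.14 (adjusted p 1). Window 38 (0.85, adjusted p 0.0125) lost its call without SMI replicate 1 (0.115) or 2 (0.0781). Window 40 (0.82, adjusted p 0.0181) was called in only 2 of the 6 fits that left out 1 library, with values of up to 0.154.

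Window 45 of MT-RNR1 held 0.521%, 0.547% and 0.498% in MDH2 IP, 0.259%, 0.263% and 0.250% in SMI, and 0.685%, 0.596% and 0.757% in IgG IP. The 3 groups did not overlap and SMI was the lowest. MDH2 IP was higher than SMI by 1.02 (diffSpliceDGE adjusted p 0.00301) and IgG IP by 1.41 (adjusted p 0.000314; 0.0519 without SMI replicate 1). Window 46 (positions 901 to 950) had few counts: 29, 28 and 11 in MDH2 IP, 1, 12 and 7 in SMI, and 8, 4 and 2 in IgG IP. Its share was higher in MDH2 IP by 2.09 (diffSpliceDGE adjusted p 6.56e-05), and it was not tested between IgG IP and SMI. The last window, 47, had at most 2 counts in any library.

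MT-RNR2 showed the opposite in its middle, where 4 of 77 windows had a lower share in MDH2 IP and 0 a higher one, with 2.85% of all windows lower. Window 43 (positions 841 to 890) held 0.485%, 0.598% and 0.489% in MDH2 IP, 1.15%, 1.15% and 1.07% in SMI, and 0.499%, 0.415% and 0.428% in IgG IP. Both kinds of IP overlapped and lay below SMI. The difference of the share was -1.10 between MDH2 IP and SMI (diffSpliceDGE adjusted p 0.000378), -1.33 between IgG IP and SMI (adjusted p 0.000433, where 1.51% of windows were lower) and 0.23 between MDH2 IP and IgG IP (adjusted p 1). Positions 851 to 860 held at least 865, 1270 and 1025 sites in SMI, and at most 524, 571 and 438 in MDH2 IP. This stretch thus had more sites in each SMI library than the limit in any MDH2 IP library, before scaling. SMI also held more counts on all of MT-RNR2, at least 227867 against at most 166637 in MDH2 IP. These limits therefore do not bear on the share of the gene.

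The neighbouring windows 42 and 44 were also lower in both comparisons, at -0.84 and -0.75 between MDH2 IP and SMI (diffSpliceDGE adjusted p 0.0128 and 0.0386). In IgG IP against SMI both lost the call without any one of the SMI replicates, and window 42 without IgG IP replicate 3 and window 44 without IgG IP replicate 2 (adjusted p 0.0648 to 0.173). Window 46 (positions 901 to 950) was lower in MDH2 IP at -0.84 (adjusted p 0.0153), with 0.262%, 0.275% and 0.269% in MDH2 IP against 0.480%, 0.531% and 0.432% in SMI. Windows 42, 44 and 46 were called in 3, 1 and 3 of the 6 fits that left out 1 library. Window 43 of MT-RNR2 and windows 39, 45 and 46 of MT-RNR1 were called in all 6. Of these, window 46 of MT-RNR1 met the filter mainly through MDH2 IP. Without MDH2 IP replicate 1, SMI replicate 1 or SMI replicate 2, window 43 was the only window of MT-RNR2 called. Between MDH2 IP and IgG IP no window of either gene had another share of its gene, with a lowest adjusted p of 0.899 and 0 windows at an unadjusted p under 0.05, where 0.206% of 30091 windows were higher and 0.415% lower.

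**Figure D4:**
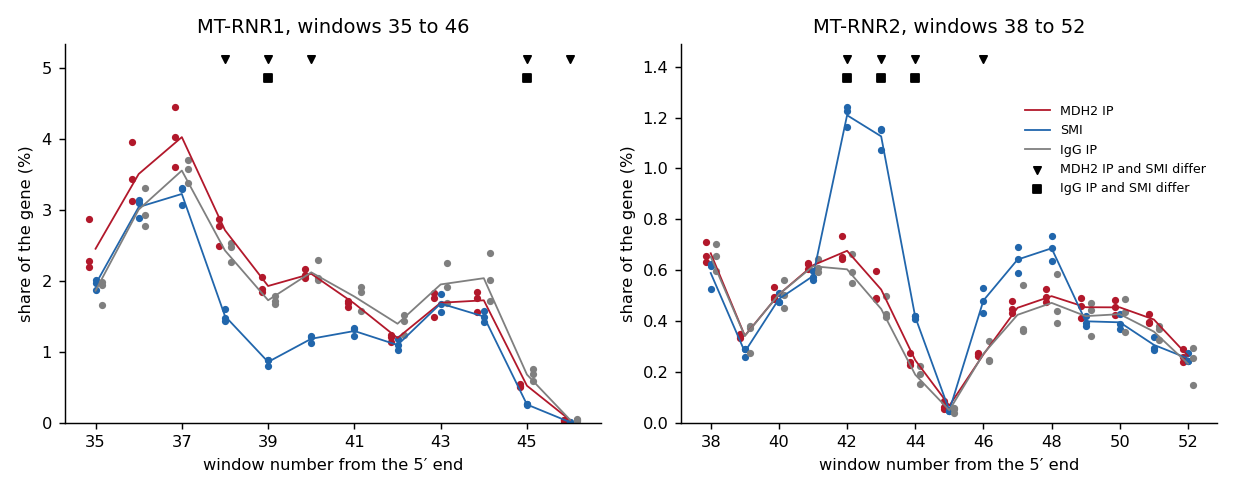
Share of the counts of the gene in windows 35 to 46 of MT-RNR1 and windows 38 to 52 of MT-RNR2, with points for libraries, lines for group means, triangles where MDH2 IP and SMI differ and squares where IgG IP and SMI differ (diffSpliceDGE adjusted p of at most 0.05). At window 39 of MT-RNR1 the IP libraries lie between 1.67% and 2.05% and SMI between 0.797% and 0.890%, and at window 43 of MT-RNR2 the IP libraries lie between 0.415% and 0.598% and SMI between 1.07% and 1.15%.

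Over larger distances, each gene was cut into 3 parts of about equal window number. The last part of MT-RNR1 held 27.5%, 25.1% and 28.9% of the gene in MDH2 IP, 20.04%, 20.2% and 20.6% in SMI, and 24.6%, 24.6% and 26.0% in IgG IP. Its first part held 63.8% ± 0.357 in SMI, 57.4% ± 2.03 in MDH2 IP and 59.4% ± 1.57 in IgG IP (SD, n = 3). SMI did not overlap with either IP in both parts, and MDH2 IP and IgG IP overlapped. The differences between MDH2 IP and SMI were 6.87 and -6.46 percentage points, each with an exact permutation p of 0.1, the smallest possible, and 0.3 after adjustment over 18 comparisons. In MT-RNR2 no part separated MDH2 IP from SMI, and the middle part was 24.4% ± 1.10 in MDH2 IP and 27.0% ± 1.41 in SMI (SD, n = 3; exact permutation p 0.2, adjusted 0.327).

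At its 5′ end, MT-RNR2 meets the tRNA gene MT-TV. A read that starts at the first base of the rRNA is counted 1 nt upstream, in MT-TV. Window 2 of MT-TV, which ends at the last base before the rRNA, held 275, 251 and 179 counts for MDH2 IP, 615, 837 and 892 in SMI, and 75, 30 and 19 in IgG IP. At least 598, 789 and 865 of the SMI counts and 179, 162 and 105 of the MDH2 IP counts lay in its last 19 nt (chrM:1652-1670). Window 1 of MT-TV, which lacks these bases, held 96, 89 and 74 counts for MDH2 IP and 17, 48 and 27 for SMI. The tRNA end was thus lower in MDH2 IP than in SMI (log2FC -1.90, SE 0.207, edgeR adjusted p 3.78e-07), while the rest of the tRNA was higher (1.35, SE 0.295, edgeR adjusted p 0.00825; 0.134 without SMI replicate 1 and 0.0526 without SMI replicate 3). IgG IP differed from SMI in the same way, at -1.62 (edgeR adjusted p 6.22e-06) for window 2 of MT-TV and 2.00 (1.15e-05) for window 1. Between MDH2 IP and IgG IP these windows were at -0.015 and -0.40, and neither was called. Within MT-RNR2, window 1 (positions 1 to 50) followed with -1.49 in MDH2 IP against SMI (edgeR adjusted p 2.9e-06), and window 3 with -0.77 was not called. This window 1 was also lower in IgG IP than in SMI, at -1.03 (edgeR adjusted p 0.00203).

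The tRNA genes outside the pair went the other way from the large-subunit rRNA. Counts of MT-TF, before MT-RNR1, were 592, 810 and 454 in MDH2 IP, 126, 255 and 160 in SMI, and 271, 144 and 62 in IgG IP. This gene was higher in MDH2 IP than in SMI at 2.05 (SE 0.305, edgeR adjusted p 0.00198). MT-TL1, after MT-RNR2, was higher at 1.93 (SE 0.316, edgeR adjusted p 0.00275). Both tRNA genes were also higher in IgG IP than in SMI, at 2.01 (edgeR adjusted p 0.00223) for MT-TF and 2.31 (0.000489) for MT-TL1. Neither passed the test between MDH2 IP and IgG IP, at 0.13 and -0.29. Window 1 of MT-RNR1, next to MT-TF, had a log2FC of -0.14 between MDH2 IP and SMI, nearer to 0 than window 2 at -0.59. Without TMM scaling, window 1 was at 0.43.

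Among 26 other mitochondrially encoded genes with enough counts, those whose pattern over the 9 libraries was most like MT-RNR1 were MT-CO3, MT-ATP8 and MT-CO2, with distances of 0.383, 0.402 and 0.420 between gene-centred log2 CPM. For MT-RNR2 they were MT-TV, MT-ND3 and MT-ND4L, at 0.679, 0.726 and 0.840. Of the 13 mitochondrial mRNAs, 0 were higher and 3 lower in MDH2 IP than in SMI, where 16.4% of all genes were higher and 17.9% lower, with a median log2FC of -0.18 against -0.01 over all genes. The 3 were MT-ND4 (-0.58), MT-ND3 (-0.47) and MT-CYB (-0.42), subunits of the respiratory chain, and all were nearer to 0 than MT-RNR2. MT-ND4 lost its call without MDH2 IP replicate 1, MT-ND3 without SMI replicate 2, SMI replicate 3, MDH2 IP replicate 1 or MDH2 IP replicate 3, and MT-CYB in all 6 fits that left out 1 library, with adjusted p values of up to 0.0698, 0.123 and 0.180. With total counts as the library size, MT-ND3 and MT-CYB did not pass the test either.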

How the data were processed

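Cross-link sites were measured by eCLIP in Huh7 cells, with 3 MDH2 IP, 3 SMI and 3 IgG IP libraries. Per the study's methods, reads were trimmed with cutadapt (reads under 18 nt discarded), mapped to GRCh38 with STAR with up to 10 alignments per read, deduplicated by molecular identifiers, and counted in sliding 50-nt windows placed every 20 nt over genes of GENCODE v23. The deposited table holds these counts, not normalized, for 15767969 windows with at least 1 count. The submitters' processing notes name cutadapt, STAR and HTSeq. No column was left unused.

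Ensembl identifiers were matched to GENCODE v44 (33751 of 34950), and 1 numbered tRNA identifier with the counts of MT-TL1 was dropped. Coordinates of windows are from v44 and hold only if the gene models of both genes are the same in v23; the number of windows was that expected for both. For 32 of 32 mitochondrial genes with counts the last window number did not exceed the length in v44. No gene named MTRNR2L is listed (0 in the table used here). Since a site enters up to 3 windows, sums over windows count sites more than once. In a set of non-overlapping windows (1 of every 3), libraries held 545598 to 3295322 counts.

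The quasi-likelihood test of edgeR 4.0.16 (R 4.3.3, TMM) was run on genes and on windows that reached 10 counts in 3 or more of the libraries in the comparison, and only those libraries entered the fit. Gene tests were two-sided. Window tests were one-sided in each direction, each p being multiplied by how many tested windows overlap there, itself included. Shares of a window in its gene were tested, two-sided, with diffSpliceDGE of edgeR on genes with several tested windows. All p-values were adjusted by Benjamini-Hochberg over the whole table. Library size was the total of all window counts for genes and that of the tested windows for windows, so log2FC values of genes and windows are on different scales. For shares, ratios and the 3 parts of a gene, exact permutation tests (two-sided) were used. Limits on sites in 10-nt stretches came from linear programming on overlapping windows with scipy 1.17.1, for stretches with at least 500 sites in every SMI or every MDH2 IP library. Tests were tried on simulated data. Limits that a count of 0 allows (3 counts) cover counting error only.

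Both genes and the gene lists were chosen with earlier results of these data known. Windows were named if first or last in the gene, among the 5 with the highest mean level in a group, at the highest or lowest log2FC of a comparison, or called higher. Windows 2, 3, 17, 29, 42, 44 and 46 of MT-RNR2 and windows 2, 20 to 24, 38, 39 and 40 of MT-RNR1 were added after their values were seen. Replicate numbers were not taken to pair libraries. Alternatives were other scalings (DESeq2 1.42.0 size factors, no TMM, TMM without mitochondrial genes), other filters, a fit of all 9 libraries and the DESeq2 Wald test. A replicate block, non-overlapping windows and leaving out each library were also used. Without TMM, the library size was the total of all counts for genes and the sum over the tested windows for windows.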

Additional observations from a re-analysis of the deposited data

How the results depend on the processing

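The lower level of MT-RNR2 in MDH2 IP than in SMI and the difference of the ratio kept their direction under all alternatives run. Shares were not tested with other scalings, the fit of all 9 libraries or the DESeq2 Wald test. In the other alternatives the shares at window 39 of MT-RNR1 and window 43 of MT-RNR2 kept their direction. Window 39 was not among the windows that do not overlap. Counts of called windows depended on the scaling and the filter. The filter also set the library size of the window fits, which was the sum over the tested windows. The part of this in the counts of calls was not tested. Without TMM scaling, 15 windows of MT-RNR2 were lower in MDH2 IP than in SMI and 3 of MT-RNR1 higher. Of all windows, 4.66% were lower and 23.8% higher. IgG IP against SMI gave 7 and 3, where 4.77% of all windows were lower and 8.24% higher. With total counts as the library size, MT-RNR1 as a gene was at -0.69 in this comparison (edgeR adjusted p 0.0436). With at least 20 counts in 3 libraries there were 43 lower windows of MT-RNR2 against SMI in MDH2 IP and 6 in IgG IP. Of all windows, 14.3% and 11.3% were lower. This filter also gave 3 higher windows of MT-RNR1 in IgG IP, where 8.52% of all windows were higher. With 10 counts in sum, share calls between MDH2 IP and SMI were 3 for MT-RNR1 and 1 for MT-RNR2. Of 698904 windows, 2456 had a higher share and 2039 a lower one. In IgG IP against SMI this filter gave 0 share calls for both genes and 75 lower windows of MT-RNR2. Of MT-RNR1, 9 windows were lower and 0 higher, where 1.36% of all windows were lower and 2.25% higher. MT-RNR1 as a gene was at -0.69 (edgeR adjusted p 0.0339). Without a limit on the fold change, 11 windows of MT-RNR1 were lower in MDH2 IP than in SMI, where 5274 of 51105 windows were. Against IgG IP, 2 of MT-RNR2 were lower in MDH2 IP, where 1465 of 30424 were. In IgG IP against SMI 36 of MT-RNR2 were lower and 2 of MT-RNR1 higher, where 1718 and 1648 of 26666 were. The fit of all 9 libraries and the fit with no multiplication for overlap each gave 1 higher window of MT-RNR1 in MDH2 IP than in SMI. Of all windows, 4.43% were higher in the first of these and 3892 of 51105 in the second. TMM without mitochondrial genes gave 1 lower window of MT-RNR1, where 10.1% of all windows were lower. In windows that do not overlap, there were 2 share calls each for MT-RNR1 and MT-RNR2 in MDH2 IP against SMI, and 1 each in IgG IP against SMI. Of all such windows, 491 of 16101 had a higher share and 462 a lower one in the first comparison. In the second, 169 of 8308 were higher and 140 lower.

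Leaving out 1 library at a time, log2FC values of MT-RNR1 ranged from -0.24 to 0.034 in MDH2 IP against SMI, turning sign without MDH2 IP replicate 1 (0.034) or SMI replicate 2 (0.010), from 0.38 to 0.78 in MDH2 IP against IgG IP, and from -0.79 to -0.40 in IgG IP against SMI. Those of MT-RNR2 ranged from -0.96 to -0.68, from 0.34 to 0.54 and from -1.28 to -1.06. Lower windows of MT-RNR2 numbered 44 to 72 in MDH2 IP against SMI and 16 to 59 in IgG IP against SMI, and share calls 1 to 4 in both. Windows of MT-RNR1 numbered 0 to 4 lower and 0 to 1 higher in MDH2 IP against SMI. In IgG IP against SMI they numbered 0 to 3 lower and 0 to 2 higher. MT-RNR1 had 3 to 6 and 0 to 2 share calls. Of all windows, 4.44% to 9.89% and 4.08% to 8.45% were lower in these comparisons, and 0.720% to 2.90% and 4.12% to 13.7% higher. In MDH2 IP against SMI, 627 to 896 of all windows had a higher share and 374 to 939 a lower one, of 38804 to 45802. In IgG IP against SMI, 59 to 306 had a higher share and 45 to 166 a lower one, of 7109 to 26093. Window 1 of MT-RNR1 turned from -0.14 to 0.43 without TMM scaling and to 0.069 with 20 counts in 3 libraries. Over the fits without 1 library it lay between -0.29 and 0.099 (without MDH2 IP replicate 1). Window 34, at 0.11, lay between -0.027 (without SMI replicate 1) and 0.35. MT-TF, at 0.13 between MDH2 IP and IgG IP, lay between -0.15 (without MDH2 IP replicate 2 or IgG IP replicate 3) and 0.36.

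With the replicate number as a block, MT-RNR1 passed the gene test in all comparisons, at -0.11 (adjusted p 0.0384) for MDH2 IP against SMI, 0.55 (adjusted p 0.037) for MDH2 IP against IgG IP and -0.57 (adjusted p 0.00968) for IgG IP against SMI. In MDH2 IP against SMI the block gave 9 lower and 3 higher share calls of MT-RNR2, 1 lower of MT-RNR1, and 1 higher window of MT-RNR1. Over the whole table, 2921 of 50664 windows then had a higher share and 2826 a lower one, and 7.47% of 51105 windows were higher. The block changed no other call of both genes by over 1.5 times. Nothing in the labels ties same-numbered libraries to one lysate, though the protocol takes SMI from the lysate before the IP. Their deviations from the group means correlated with r of 0.0369, 0.376 and 0.377 for MDH2 IP and SMI, where every library correlated best with its own number, and with r of -0.0105 to 0.200 in the comparisons with IgG IP, where not every library did. IgG IP, with the fewest counts, limits the comparisons with it.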

Other observations

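The mRNAs of 29 proteins that transcribe, cut, modify or assemble mitochondrial rRNA were also in the table, as cytosolic or nuclear transcripts. Of 28 tested, 6 were higher and 6 lower in MDH2 IP than in SMI (edgeR, gene totals), where 16.4% of 17056 genes were higher and 17.9% lower, with a median log2FC of -0.05 against -0.01 over all genes. The largest rise was that of POLRMT, the mitochondrial RNA polymerase, at 1.30 (SE 0.16, edgeR adjusted p 0.001), and it was also higher in IgG IP than in SMI at 1.48. The largest fall was that of METTL15, a methyltransferase of the small-subunit rRNA, at -1.09 (SE 0.15, edgeR adjusted p 0.00134). Against IgG IP, 3 of 28 were higher in MDH2 IP and 1 lower: HSD17B10, a subunit of mitochondrial RNase P, at 1.37, FASTKD2, which binds the large-subunit rRNA, at 1.38, ELAC2, the nuclease that cuts tRNA 3′ ends, at 0.74, and METTL15 at -0.70. In this comparison 4.64% of 15491 genes were higher and 7.77% lower. All 4 calls were lost in some of the 6 fits that left out 1 library, with adjusted p values of up to 0.120. HSD17B10 passed only without MDH2 IP replicate 2, MDH2 IP replicate 3 or IgG IP replicate 1, FASTKD2 only without IgG IP replicate 2 or 3, ELAC2 only without IgG IP replicate 1, and METTL15 only without MDH2 IP replicate 3 or IgG IP replicate 2. Counts of HSD17B10 were 167, 203 and 291 in SMI, 333, 260 and 289 in MDH2 IP, and 60, 18 and 17 in IgG IP.

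MT-ND6, the mRNA encoded on the opposite strand from the rRNAs, held 883, 1059 and 942 counts in SMI, 1107, 946 and 711 in MDH2 IP, and 2528, 981 and 834 in IgG IP. It was higher in IgG IP than in SMI at 2.76 (SE 0.21, edgeR adjusted p 2.21e-05) and lower in MDH2 IP, against IgG IP, at -2.51 (SE 0.22, edgeR adjusted p 0.000367), in which it was the only called gene of the 13 mitochondrial mRNAs.

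Windows of MT-RNR2 with fewer G held more counts in all groups. Over 77 windows, Pearson's r between the percentage of G and the log2 mean CPM was -0.60, -0.64 and -0.59 for MDH2 IP, SMI and IgG IP, and Spearman's rho was -0.65, -0.68 and -0.63. In MT-RNR1, r was -0.26, -0.39 and -0.32 over 40 windows. The log2FC between MDH2 IP and SMI had r = 0.59 with the percentage of G over the windows of MT-RNR1 and 0.08 over those of MT-RNR2. These are descriptions, since neighbouring windows share sites and bases.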
